A study of Arabidopsis thaliana with 13 samples.

Results

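CLE3 is a small secreted peptide of Arabidopsis thaliana (thale cress), and its overexpression was compared here with wild type in whole roots. The tested groups were 2 CLE3 overexpression lines in the Columbia-0 (Col-0) background, CLE3ox 12-1 (n = 2 arrays) and CLE3ox 17-3 (n = 2 arrays), and they were set against Col-0 wild type (n = 3 arrays). These 7 arrays are all the members, of 13 Affymetrix ATH1 arrays in the whole data set, and they were chosen by sample title. The other 6 arrays came from clv1-15 mutants in the Landsberg erecta (Ler) background and from Ler wild type. They served to estimate the spread between arrays and entered the mean by which low probe sets were left out. All plants were 10 days old and grew on MGRL medium with 0.1 mM KNO3, a low nitrate supply, and 1% sucrose, at 22 °C with 16 h light. The labels do not give the promoter of the transgene, and 2 lines limit how far an effect of the transgene can be told apart from effects of the insertion sites. Replicates are labelled as biological, with nothing on separate cultures or days. The p-values measure the spread between arrays within each group, pooled over all 5 groups of the data set. Differences between the 2 lines do not enter that spread.

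CLE peptides are cut from larger precursors, secreted into the cell wall space and bound by receptor kinases with leucine-rich repeats, of which CLV1 is the best known. In shoots, CLE signalling limits the stem cell pool of the meristem. In roots, CLE3 and related peptides are known from work on nitrogen-poor plants, where they act with CLV1 in limiting lateral root growth.

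The values are MAS5 signals, which are linear probe set intensities scaled to a common trimmed mean. A fold change is a difference of log2(signal + 16), with the mean of the line means set against the Col-0 mean, so it understates the change of low signals. To pass the test, a probe set needed a limma p below 0.05 after Benjamini-Hochberg adjustment over all 15922 probe sets tested, and errors after ± are standard errors of that fit. A gene is called without overlap where all 4 CLE3ox arrays lay on one side of all 3 Col-0 arrays. In whole roots, fewer cells of a type and less RNA per cell cannot be told apart.

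Arrays of 1 group correlated at 0.9867 to 0.9934, and none stood far apart. The first principal component, with 36.5% of the variance of the 7 arrays, set the lines apart from Col-0. The second, with 23.4%, separated the second array of each line and the third Col-0 array from the other 4 arrays, and the bioD spike-in, a hybridisation control, was above 2600 on those 3 arrays and below it on the others. Of 15 listed root markers only 2 had a named probe set, the root hair expansins EXPA7 and EXPA18. Their signals summed to 3290.3, 3292.7, 2834.9 and 2641.5 on the CLE3ox arrays and to 3817.4, 3374.4 and 3875.1 on the Col-0 arrays. Root hair signal was thus present on every array, and markers of other root cell types could not be read by name.

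No probe set is named CLE3 or CLV1 in the platform table used here, so overexpression could not be checked by name. The probe set with the highest fold change has no gene name in that table. This probe set, 260795_at, read 11179.6 and 11856.9 in line 12-1 and 13238.8 and 13438.6 in line 17-3, against 31.0, 27.1 and 1.2 in Col-0. All 4 CLE3ox arrays were far above Col-0, at a log2 fold change of 8.57 ± 0.24 (limma, adjusted p = 3.51e-12). With pseudocounts of 1 and 64 that change was 9.95 and 7.24, because the Col-0 signals lie below 51.8, the lowest mean signal tested. The 6 arrays in the Ler background lay between 18.8 and 107.4, also far below the lines. A second unnamed probe set, 252515_at, read 400.8 and 365.8 in line 12-1 and 1315.1 and 1254.5 in line 17-3, against 107.2, 140.8 and 114.3 in Col-0 (2.41 ± 0.15, adjusted p = 2.9e-07). Among the unnamed falls, 260551_at changed by -1.83 ± 0.16 (adjusted p = 9.22e-06) and 253505_at by -1.80 ± 0.17 (adjusted p = 1.31e-05), with no overlap in either case.

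Across the 15922 probe sets, 389 passed the test (2.44%), of which 168 rose (1.06%) and 221 fell (1.39%) in CLE3ox roots. The 4 CLE3ox arrays lay above the 3 Col-0 arrays for 1041 probe sets (6.54%) and below them for 1207 (7.58%). Both conditions held for 143 rises (0.898%) and 211 falls (1.33%). Only 51 of the probe sets past the test changed at least 2-fold (0.32%), and the median log2 fold change over all probe sets tested was 0.01. Of the probe sets past the test and without overlap, 154 carry exactly 1 gene name, 67 that rose and 87 that fell, and these named genes are described below. Without 1 array the number past the test was 206 to 375, down by over 1.5 times without the second array of 12-1 (236), the first Col-0 array (228) or the third (206). The median fold of the 154 named genes was 1.42 and the highest 4.36, and 21 of them changed at least 2-fold. The call of 57 of the 154 held without each of the 7 arrays in turn, and leaving out the third Col-0 array alone ended 82 of the calls. At the edge of the overlap rule, PSB27 was just inside, with its lowest CLE3ox signal of 142.7 against a highest Col-0 signal of 142.3. AT3G49190 was just outside, with a highest CLE3ox signal of 390.8 against a lowest Col-0 signal of 390.6.

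**Figure D1:**
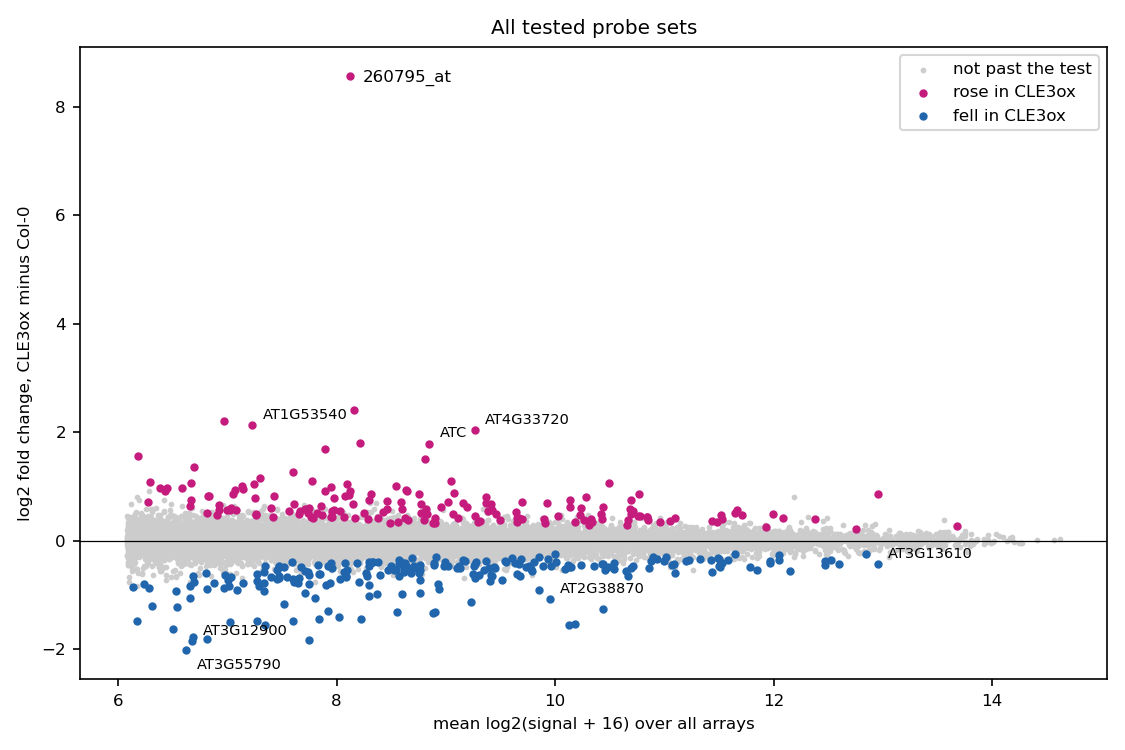
Log2 fold change of CLE3ox minus Col-0 (vertical axis) against mean log2(signal + 16) over all 13 arrays (horizontal axis) for each of the 15922 probe sets tested, with the 168 that rose and the 221 that fell coloured. The unnamed probe set 260795_at stands alone at 8.57, and no named gene is beyond 2.12 upward or -2.02 downward.

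Small heat shock proteins, chaperones that hold unfolding proteins until they can be refolded, were the group with the largest named rise. Of 11 measured members 6 rose and none fell, beside 1.06% of all probe sets that rose. The median log2 fold change was 0.93, beside 0.01 over all probe sets tested. All 11 had a positive value. AT1G53540 read 149.9 and 139.5 in line 12-1 and 463.6 and 495.8 in line 17-3, against 45.7, 68.5 and 36.0 in Col-0. That is a log2 fold change of 2.12 ± 0.27 (limma, adjusted p = 0.000375), and every CLE3ox array was above every Col-0 array. AT1G54050 read 223.2 and 217.1 in line 12-1 and 407.5 and 439.3 in line 17-3, against 129.4, 127.8 and 98.5 in Col-0 (1.27 ± 0.15, adjusted p = 0.000161). ATHSP22.0, an endoplasmic reticulum member, read 54.2, 80.2, 110.2 and 96.9 in CLE3ox roots, against 27.3, 24.2 and 5.5 in Col-0, whose signals lie below the lowest mean tested (1.57 ± 0.23, adjusted p = 0.00132). In all 3 genes the arrays of line 17-3 were the highest.

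The remaining risers of the family were AT5G37670 (1.00 ± 0.14, adjusted p = 0.000849), AT1G52560 (0.96 ± 0.13, adjusted p = 0.000475) and AT2G29500 (0.93 ± 0.12, adjusted p = 0.000325). AT1G52560 separated the lines: it read 191.8 and 245.9 in line 17-3 and 74.5 and 101.6 in line 12-1, while Col-0 had 67.6, 64.9 and 59.3. Its call was lost when both lines were treated as 1 group (adjusted p = 0.073), and the other 5 calls held in that fit. The chaperone class, assigned by hand after the values were seen, held 8 named calls, 7 that rose and 1 that fell, at -0.38. That class is wider than the small heat shock proteins, so some chaperone calls, among them the fall, lay outside this family. In the separate list of larger chaperones and their partners, 0 of 6 measured members passed the limma test. Of these members 2 had an unadjusted p under 0.05, and the list median was 0.17. The most abundant of them, the Hsp70 gene AT3G09440, read 5541.6, 5945.8, 5874.2 and 4877.5 in CLE3ox roots, against 5776.5, 6017.3 and 6866.8 in Col-0 (-0.16 ± 0.08, adjusted p = 0.375). Its groups overlap.

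**Figure D2:**
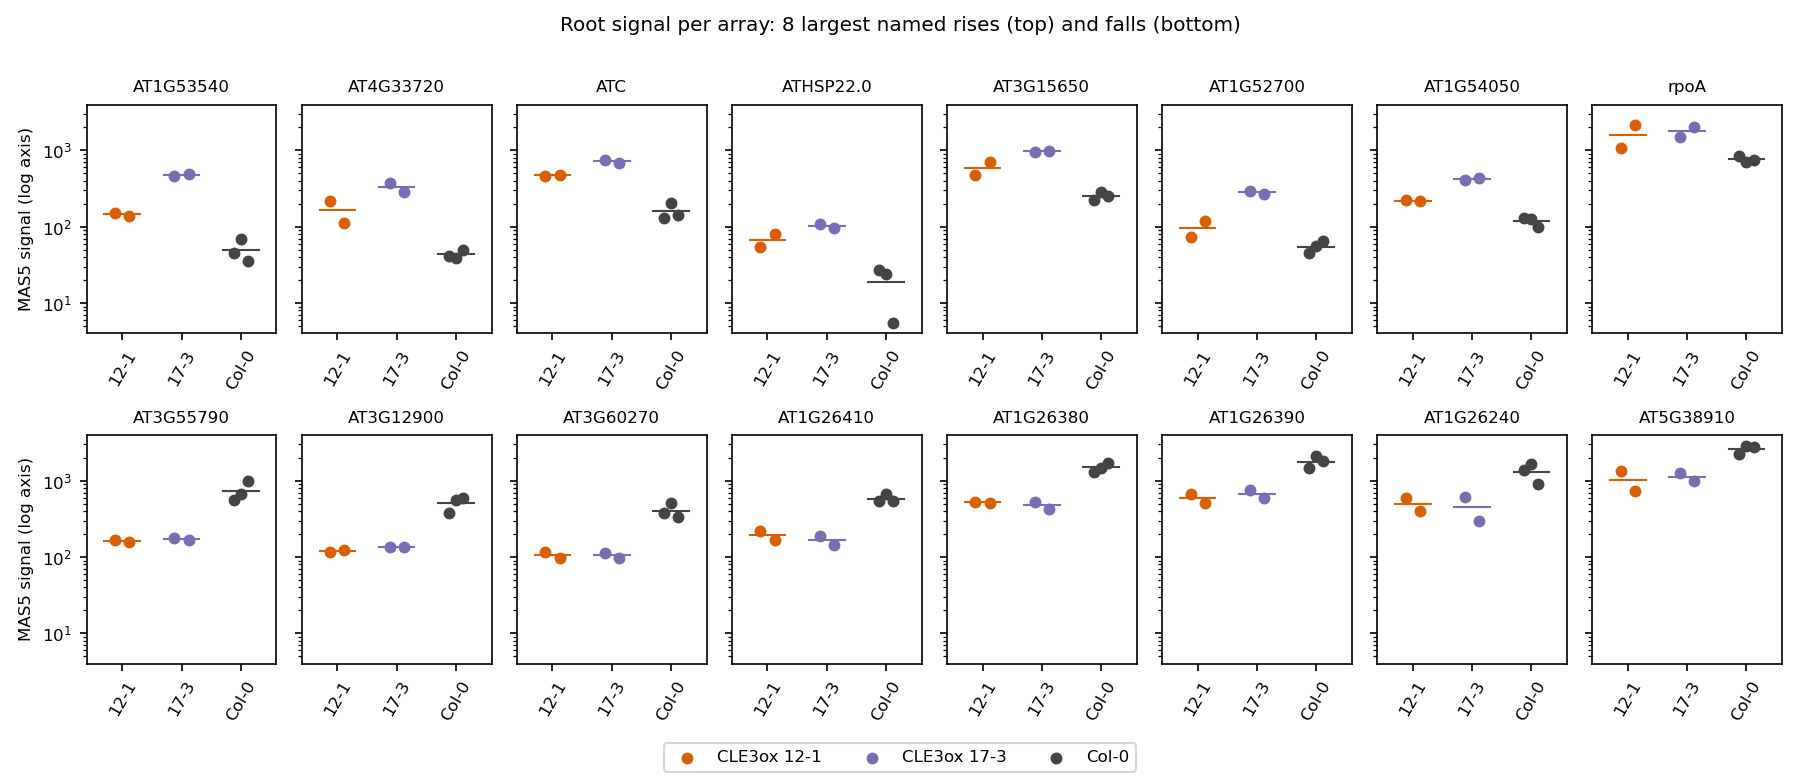
MAS5 signal per array on a log axis for the 8 named genes with the largest rises (top row) and the 8 with the largest falls (bottom row), in line 12-1 (2 arrays), line 17-3 (2 arrays) and Col-0 (3 arrays), with the mean of each group as a line. In each panel the CLE3ox arrays lie wholly above or wholly below the Col-0 arrays, and AT1G53540 reads 463.6 and 495.8 in line 17-3, against 36.0 to 68.5 in Col-0.

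The berberine bridge enzyme-like oxidases are flavin-dependent enzymes, several of which act on cell wall fragments or on indole compounds made in defence. Of 12 measured members 3 fell and none rose, at a median of -0.14, beside 1.39% of all probe sets that fell. The 3 that fell are AT1G26380, AT1G26390 and AT1G26410, which lie beside each other on chromosome 1 with 1 gene between the last 2 of them. AT1G26380 read 531.6, 504.7, 526.8 and 427.4 in CLE3ox roots, against 1293.4, 1459.4 and 1729.7 in Col-0 (-1.55 ± 0.18, limma, adjusted p = 0.000165). AT1G26390 read 663.6, 509.4, 749.4 and 589.9 in CLE3ox roots, against 1479.4, 2082.5 and 1783.8 in Col-0 (-1.48 ± 0.15, adjusted p = 3.03e-05). AT1G26410 read 220.9, 165.2, 187.5 and 142.0 in CLE3ox roots, against 548.3, 663.4 and 535.5 in Col-0 (-1.63 ± 0.18, adjusted p = 0.000113). On each CLE3ox array all 3 genes were below their lowest Col-0 signal, at close values in both lines. With a pseudocount of 1 the call of AT1G26380 was lost (adjusted p = 0.052). Near-identical neighbours can share probes, which was not tested.

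Coumarins are phenolic compounds that roots make and secrete, known for their part in iron uptake and in shaping the root's microbes. Of 4 measured genes of coumarin and phenylpropanoid synthesis 2 fell, at a median of -0.32, beside 1.39% of all probe sets that fell. AT3G12900, scopoletin 8-hydroxylase, which makes fraxetin, read 116.7, 125.1, 133.8 and 133.9 in CLE3ox roots, against 375.4, 560.0 and 600.7 in Col-0. The change was -1.86 ± 0.30 (limma, adjusted p = 0.00284), without overlap, and it missed the threshold with a pseudocount of 1 (adjusted p = 0.051). AT3G13610, feruloyl-CoA 6'-hydroxylase, which forms scopoletin's precursor, is among the brightest genes here. It read 9285.0, 8256.0, 8257.7 and 7679.4 in CLE3ox roots, against 10173.0, 11033.1 and 12737.6 in Col-0 (-0.43 ± 0.08, adjusted p = 0.00732). Without the third Col-0 array its adjusted p was 0.0501. The 2 iron deficiency genes with a named probe set fell below the filter, so 0 were tested.

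Among other enzymes of specialised metabolism, few of the measured members passed the test. With the oxidases and coumarin genes, the class, assigned by hand after the values were seen, held 10 named calls that fell and 2 that rose, beside 87 falls and 67 rises among all named calls. The cytochrome P450 CYP71B6 read 1755.5, 1685.4, 1863.9 and 1875.4 in CLE3ox roots, against 2407.6, 2516.4 and 2313.9 in Col-0 (-0.42 ± 0.06, limma, adjusted p = 0.000964). It was the 1 call among 10 P450 genes, whose median was -0.01, and 9 did not pass. Of 31 UDP-glycosyltransferases, which attach sugars to small molecules, 2 fell and 29 did not pass, at a median of -0.13, beside 1.39% of all probe sets that fell. They are AT5G53990 (-0.77 ± 0.16, adjusted p = 0.0155) and UGT72E2 (-0.35 ± 0.07, adjusted p = 0.0126), which glycosylates monolignols. Both calls were lost without some arrays, at an adjusted p of up to 0.0835 for AT5G53990 (without the first array of 12-1, the second of 17-3 or the second or the third Col-0 array) and 0.0639 for UGT72E2 (without the second array of either line or the first or the third Col-0 array). AT5G01210, an acyltransferase of the HXXXD family, rose by 0.62 ± 0.09 (adjusted p = 0.00164), whereas AT5G42830 of the same family fell by 0.72 on the log2 scale (adjusted p = 0.00403). This pair was chosen after its values were seen.

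Among defence proteins, a class assigned by hand after the values were seen, 3 named genes rose and 10 fell. Among all named calls 67 rose and 87 fell. In the list of CAP, chitinase, thaumatin, PR-6 and defensin proteins, 2 of 24 measured members rose, 4 fell and 18 did not pass, at a median of -0.19. Over all probe sets tested 1.06% rose and 1.39% fell, at a median of 0.01. AT2G38870, a proteinase inhibitor of the PR-6 family, had the smallest adjusted p of the named falls. It read 1132.5, 966.9, 1143.6 and 1105.4 in CLE3ox roots, against 2034.5, 2383.9 and 2514.0 in Col-0 (-1.07 ± 0.08, limma, adjusted p = 3.37e-06). The chitinase CHI (AT2G43570) read 405.5, 303.3, 428.9 and 467.5 in CLE3ox roots, against 829.4, 904.6 and 741.3 in Col-0 (-1.02 ± 0.12, adjusted p = 0.00025). Neither gene overlapped, and both were at about the same level in the lines. AT4G33720, a CAP protein of the PR-1 kind, went the other way: 217.9 and 111.2 in line 12-1 and 369.8 and 287.0 in line 17-3, against 41.5, 39.2 and 49.7 in Col-0 (2.03 ± 0.20, adjusted p = 2.09e-05). Its relative AT4G25790 fell by 0.50 on the log2 scale (adjusted p = 0.00918), a call that was lost without the third Col-0 array (adjusted p = 0.0658).

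The osmotin OSM34, an antifungal thaumatin-like protein, read 3629.6, 3275.5, 4268.7 and 3691.8 in CLE3ox roots, against 4999.3, 5276.1 and 4585.1 in Col-0 (-0.42 ± 0.09, limma, adjusted p = 0.0215). The defensin PDF2.1 read 160.2, 165.2, 191.4 and 275.7 in CLE3ox roots, against 105.8, 117.5 and 128.5 in Col-0 (0.66 ± 0.17, adjusted p = 0.0478). Both are small changes near the threshold. Leaving out 1 array raised the adjusted p to as much as 0.0996 for OSM34 (lost without the second array of either line or the first or second Col-0 array) and 0.201 for PDF2.1 (lost without any array but the first of 17-3). Among the other settings, 5 ended the call of PDF2.1, at up to 0.11, and a variance prior without a trend that of OSM34 (0.0622). Of 4 germin-like proteins, secreted cupin proteins of the wall, 2 fell, beside 1.39% of all probe sets. AT5G38910 read 1335.4, 723.8, 1260.4 and 976.5 in CLE3ox roots, against 2244.6, 2882.6 and 2762.7 in Col-0 (-1.31 ± 0.17, adjusted p = 0.000334). AT1G18980 fell by 0.46 on the log2 scale (adjusted p = 0.00661). The neighbour of AT5G38910 on chromosome 5, the thioredoxin-like gene AT5G38900, fell as well, by 0.80 on the log2 scale (adjusted p = 0.00132), and it was chosen for its position after its values were seen.

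The falls included structural proteins of the cell wall. Of 13 extensins and proline-rich wall proteins, which cross-link into the wall, 5 fell and none rose, at a median of -0.41. Over all probe sets tested 1.39% fell, at a median of 0.01. Each of the 13 had a negative value. AT1G26240 read 600.8, 400.7, 611.6 and 292.7 in CLE3ox roots, against 1385.8, 1641.4 and 908.6 in Col-0 (-1.45 ± 0.22, limma, adjusted p = 0.00175). AT1G61080 read 119.3, 108.3, 98.0 and 67.4 in CLE3ox roots, against 189.0, 192.1 and 195.2 in Col-0 (-0.89 ± 0.12, adjusted p = 0.000849). No array of the groups overlapped for either gene. AT5G26080 (-0.70 ± 0.11, adjusted p = 0.00203), AT5G19800 (-0.52 ± 0.13, adjusted p = 0.0403) and its neighbour AT5G19810 (-0.39 ± 0.09, adjusted p = 0.0382) completed the falls. AT5G26080 missed the threshold with both lines as 1 group (adjusted p = 0.058). AT5G19800 lost its call without any array but the second Col-0 array, at up to 0.198, and AT5G19810 without any of the 7, at up to 0.186. With both lines as 1 group they missed the threshold too (0.0775 and 0.102).

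Several extensins also moved with the spike-in signal. AT3G54580, which did not pass the test (-0.41 ± 0.30, adjusted p = 0.584), read 1958.7 and 1082.7 in line 12-1 and 1606.1 and 685.6 in line 17-3, against 2360.7, 2064.9 and 915.5 in Col-0. The low value in each group is on an array of high bioD signal, and the same arrays hold the lowest value of AT1G26240 in each group. How much of the extensin result goes with that pattern was not tested. AT1G26240 was at -1.29 within the arrays of lower spike-in signal and at -1.37 within those of higher signal. With the bioD signal as a block, added after seeing the data, all 389 calls passed, the extensin falls among them. That block divides each line and Col-0 alike, so the kept calls do not answer that question.

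Wall-loosening expansins gave 2 falls among 14 measured members, at a median of -0.12, beside 1.39% of all probe sets that fell. EXPA15 read 1319.9, 1242.7, 1074.5 and 1363.1 in CLE3ox roots, against 1688.7, 1851.1 and 1531.0 in Col-0 (-0.43 ± 0.09, limma, adjusted p = 0.0112), and lost its call without the second Col-0 array (adjusted p = 0.0656). EXPB3 changed by -0.34 ± 0.07 (adjusted p = 0.0167) and lost its call without the first array of either line or the second or the third Col-0 array, at up to 0.0902. EXPA15 also missed the threshold with the lines and Col-0 alone (0.0523), and EXPB3 with a variance prior without a trend (0.0512). The root hair expansin EXPA7 was at -0.31 ± 0.09 (adjusted p = 0.0723) and EXPA18 at -0.27 ± 0.10 (adjusted p = 0.178), neither past the test, although both were lower on all CLE3ox arrays. Class III peroxidases, secreted enzymes that make or use hydrogen peroxide in the wall, mostly did not pass: 1 of 41 rose, 3 fell and 37 did not pass, at a median of -0.03, beside 1.06% and 1.39% of all probe sets that rose and fell. AT3G21770 rose by 0.40 ± 0.08 (adjusted p = 0.00892), and AT5G39580 (-0.83 ± 0.21, adjusted p = 0.0493), AT1G14550 (-0.67 ± 0.13, adjusted p = 0.0114) and AT1G71695 (-0.37 ± 0.09, adjusted p = 0.0403) fell. Of these 4, only AT1G14550 kept its call without each array, at an adjusted p of up to 0.0497. The call of AT3G21770 was lost without the third Col-0 array (0.0614), that of AT5G39580 without any of the 7 (up to 0.18) and that of AT1G71695 without the first Col-0 and first 17-3 arrays as the exceptions (up to 0.182). With both lines as 1 group AT5G39580 (0.0564) and AT1G71695 (0.13) missed the threshold.

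**Figure D3:**
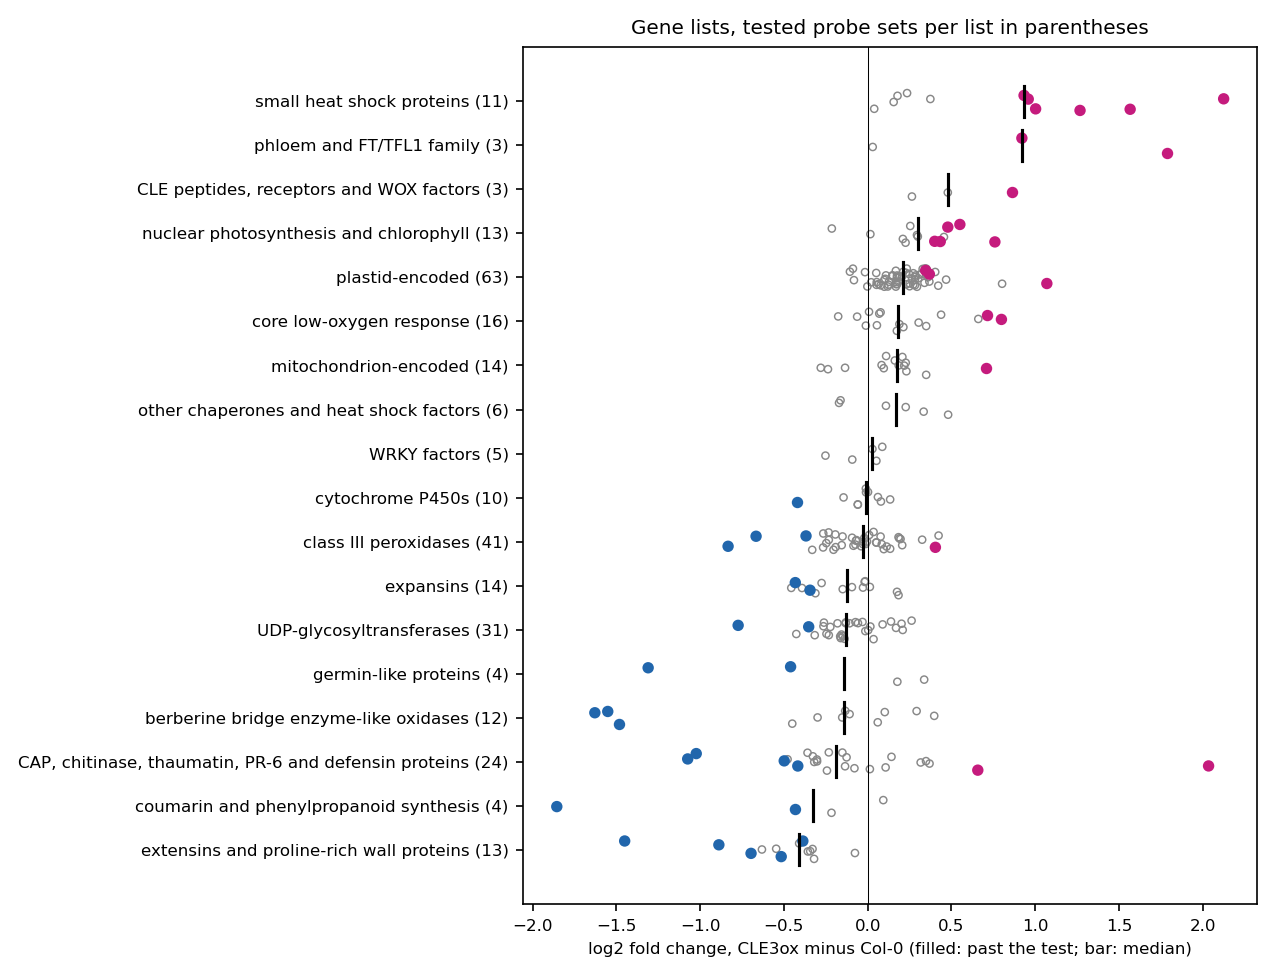
Log2 fold change of CLE3ox minus Col-0 for each measured member of the gene lists with at least 3 probe sets tested, filled where the member passed the test, with the list median as a bar and the number tested in parentheses. Small heat shock proteins have the highest median at 0.93 and extensins and proline-rich wall proteins the lowest at -0.41, beside 0.01 over all probe sets.

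In peptide signalling, CLE44 rose. CLE44 makes the same peptide as CLE41, the TDIF peptide that phloem cells send to the cambium to keep it dividing. It read 226.3 and 221.1 in line 12-1 and 325.5 and 344.2 in line 17-3, against 130.1, 154.4 and 146.3 in Col-0 (0.86 ± 0.12, limma, adjusted p = 0.000776). CLE41 read 577.4, 466.9, 707.5 and 566.5 in CLE3ox roots, against 466.9, 432.2 and 334.3 in Col-0, and did not pass the test (0.48 ± 0.14, adjusted p = 0.0853). One CLE41 array of line 12-1 equals the highest Col-0 array. The receptor kinase CR4 was near the lower limit of the tested signals and did not pass either (0.26 ± 0.21, adjusted p = 0.63).

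Among kinases and other signalling genes, a class assigned by hand after the values were seen, 5 named genes rose and 6 fell. That is close to the balance of all named calls, of which 67 rose and 87 fell. The lectin receptor kinase AT1G61500 read 166.3, 157.0, 144.2 and 133.6 in CLE3ox roots, against 319.8, 415.3 and 366.2 in Col-0 (-1.20 ± 0.21, limma, adjusted p = 0.00546), with no overlap. The calmodulin-like gene AT1G73630 read 1066.6, 1278.4, 1444.4 and 1235.9 in CLE3ox roots, against 845.9, 902.4 and 818.7 in Col-0 (0.54 ± 0.10, adjusted p = 0.00598), and it was chosen after its values were seen. Both calls held without each array.

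In the family of the flowering signal FT, ATC rose. ATC is a relative of TERMINAL FLOWER 1 that delays flowering and whose RNA moves over long distances. It read 463.6 and 477.5 in line 12-1 and 755.7 and 684.4 in line 17-3, against 132.0, 206.9 and 141.2 in Col-0 (1.79 ± 0.15, limma, adjusted p = 8.31e-06). The lowest CLE3ox array was well above the highest Col-0 array. SWEET11, a sucrose exporter that works in phloem loading, read 500.2, 592.3, 678.5 and 596.6 in CLE3ox roots, against 433.0, 312.9 and 204.7 in Col-0 (0.92 ± 0.18, adjusted p = 0.00971). Its Col-0 arrays spread widely, and no array overlapped. OPS, a regulator of phloem cell fate, was at 0.03 ± 0.18 (adjusted p = 0.964). Few transcription factors could be tested by name, 5 WRKY, 1 NAC and 1 ERF or DREB gene. LEP, an AP2/ERF factor, fell by 0.47 on the log2 scale (adjusted p = 0.0155), a call lost without the second array of 12-1 or the first or the third Col-0 array (up to 0.0933). Of 5 WRKY factors 0 passed the test and 1 had an unadjusted p under 0.05, the most abundant being WRKY6 at -0.25 ± 0.08 (adjusted p = 0.152), nor did NAC014 (0.12 ± 0.11, adjusted p = 0.686).

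The rises included genes of the photosynthetic apparatus. Of 13 measured nuclear genes 5 rose and none fell, at a median of 0.30. Over all probe sets tested 1.06% rose and 1.39% fell, at a median of 0.01. AT1G74470 rose by 0.4 (limma, adjusted p = 0.0327) but its groups overlapped, and the other 4 calls follow. LHCB4.2, a light-harvesting protein, read 140.7, 120.6, 177.8 and 264.7 in CLE3ox roots, against 83.8, 103.3 and 93.3 in Col-0 (0.76 ± 0.17, limma, adjusted p = 0.0269). PSB27, a photosystem II assembly factor, changed by 0.55 ± 0.12 (adjusted p = 0.019), the ATP synthase subunit ATPC1 by 0.48 ± 0.12 (adjusted p = 0.0425) and AT2G26500, the PetM subunit of the cytochrome b6f complex, by 0.43 ± 0.09 (adjusted p = 0.0146). None of these 4 calls held without each array, and the adjusted p reached 0.135, 0.0911, 0.165 and 0.0834, with the second and the third Col-0 arrays among those that ended each call. With both lines as 1 group all 4 missed the threshold, at 0.0845, 0.0802, 0.0704 and 0.0578. The summed signal of the green shoot markers RCA and LHCB4.1 was 800.8, 673.8, 1006.2 and 1022.9 on the CLE3ox arrays, against 773.9, 701.7 and 715.9 on the Col-0 arrays, and neither gene passed the test. Its part in the rise of the nuclear genes was not tested.

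Of 63 probe sets for plastid-encoded genes 3 rose and none fell, at a median of 0.21, and 14 lay above Col-0 on all CLE3ox arrays while 0 lay below. Over all probe sets tested, 1.06% rose, 6.54% lay above on all arrays and 7.58% below. The plastid RNA polymerase subunit gene rpoA read 1062.5 and 2128.8 in line 12-1 and 1501.8 and 2037.1 in line 17-3, against 847.9, 705.5 and 748.8 in Col-0 (1.07 ± 0.23, limma, adjusted p = 0.022). Its arrays of high spike-in signal are the higher one in each line, and with a robust variance prior its adjusted p was 0.1. The ribosomal protein gene rps4 rose by 0.37 ± 0.08 (adjusted p = 0.0151) and the photosystem II gene psbF by 0.35 ± 0.09 (adjusted p = 0.0415). All 3 calls were lost without some arrays, the second arrays of both lines and the second Col-0 array in each case, at up to 0.09 for rpoA, 0.0839 for rps4 and 0.195 for psbF. With both lines as 1 group psbF missed the threshold (0.0644). Of 14 probe sets for mitochondrial genes 1 rose, the respiratory chain gene nad4, by 0.70 ± 0.15 (adjusted p = 0.0216), at a list median of 0.17. That call was lost without the second array of 17-3 or the second or the third Col-0 array, at up to 0.122, and with the lines and Col-0 alone (0.0948).

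Low oxygen switches on a small set of genes in plant roots, of which 16 were measured here. Of these 2 rose, none fell and 14 did not pass, at a median of 0.18. Over all probe sets tested 1.06% rose and 1.39% fell, at a median of 0.01. AT3G10020 read 571.7 and 525.7 in line 12-1 and 1014.2 and 1178.9 in line 17-3, against 452.6, 403.9 and 463.2 in Col-0 (0.80 ± 0.12, limma, adjusted p = 0.00124). AT1G19530 read 481.4 and 465.6 in line 12-1 and 737.0 and 931.3 in line 17-3, against 354.1, 412.0 and 363.4 in Col-0 (0.71 ± 0.15, adjusted p = 0.0151). In both genes line 17-3 carried most of the rise, and with both lines as 1 group neither passed (adjusted p = 0.08 and 0.1). AT1G19530 also missed the threshold when the second array of 17-3 or the first or the third Col-0 array was left out, at up to 0.0784. For nitrogen uptake only NRT2.5, a nitrate transporter of nitrogen-starved roots, could be tested. It read 211.8, 255.8, 175.7 and 150.9 in CLE3ox roots, against 210.5, 225.2 and 298.2 in Col-0 (-0.29 ± 0.17, adjusted p = 0.453), with overlap.

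**Figure D4:**
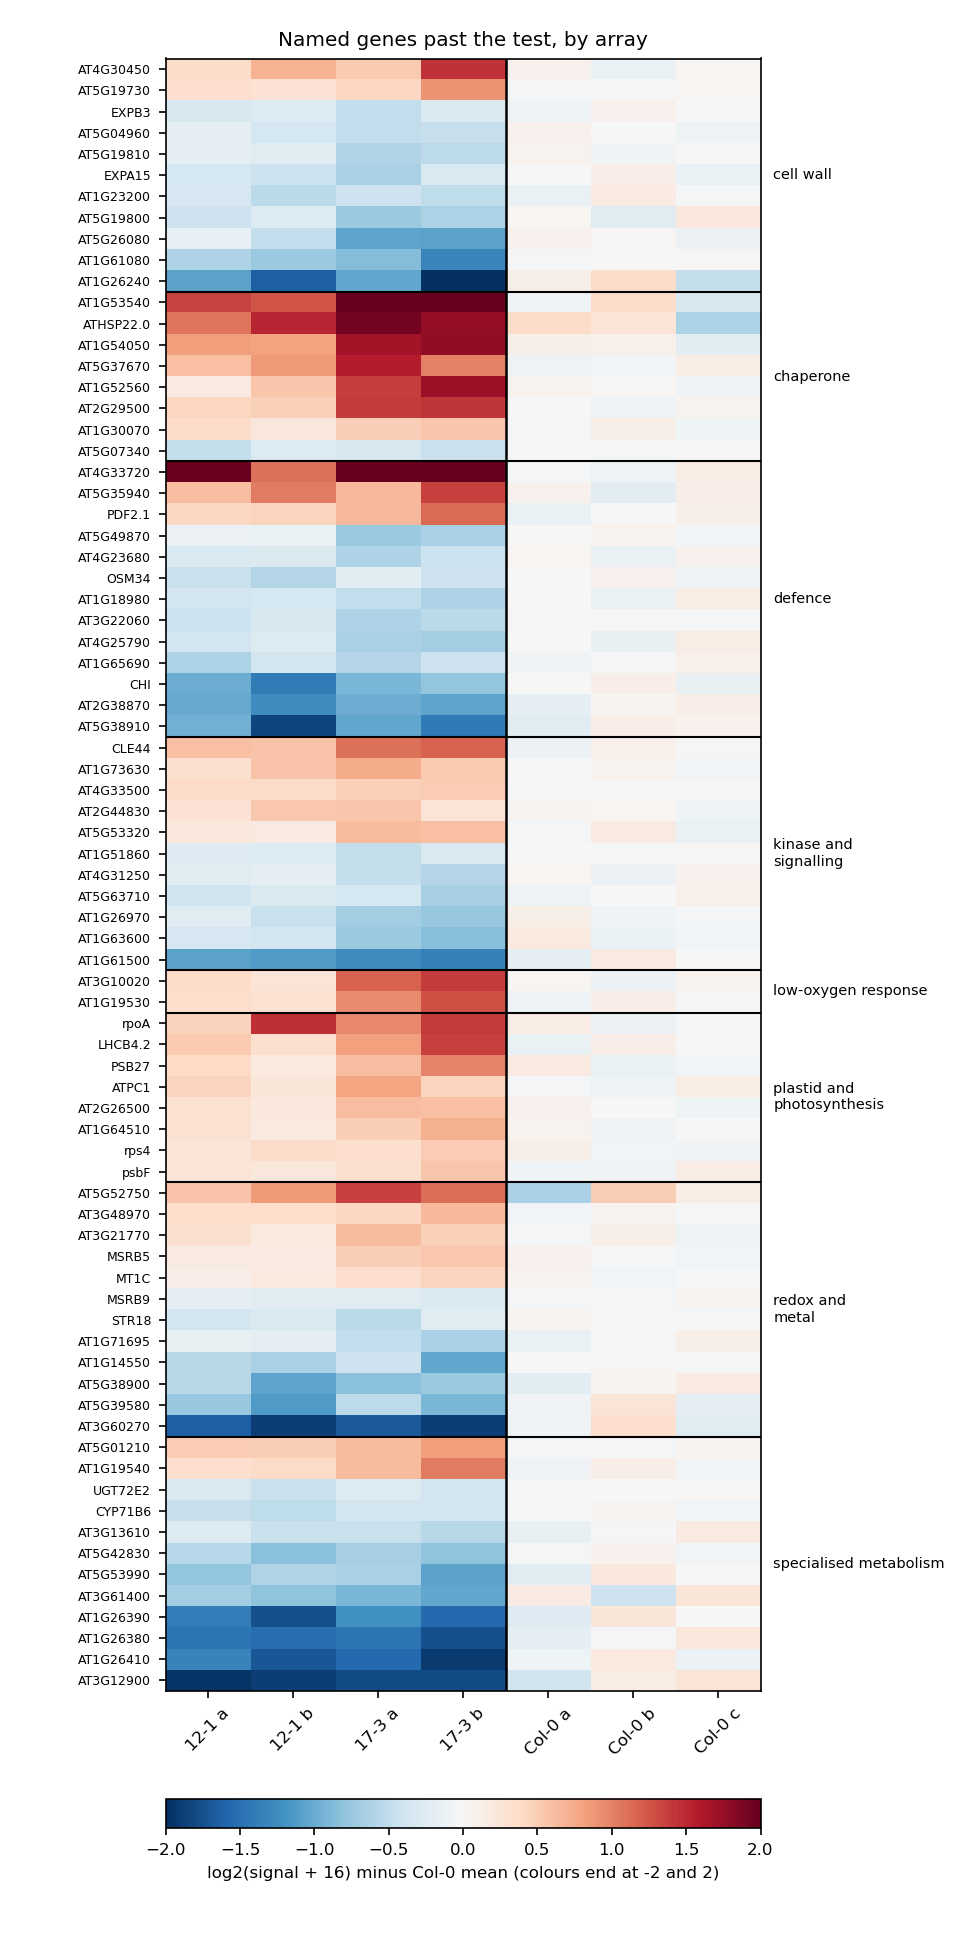
Log2(signal + 16) minus the Col-0 mean (colour) on the 4 CLE3ox arrays and the 3 Col-0 arrays, for named genes past the test and without overlap in 8 functional classes, with arrays of 1 group marked a, b and c by replicate number. Of the chaperone genes 7 of 8 are red on the CLE3ox arrays, as are all 8 plastid and photosynthesis genes, while 10 of 12 genes of specialised metabolism are blue. The lack of overlap fixes each colour, and classes were assigned by hand after the values were seen. Among all named calls 67 rose and 87 fell. Of all measured probe sets, 5 of 13 for nuclear photosynthesis genes and 3 of 63 for plastid-encoded genes rose, and none fell.

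Some of the steepest changes lay outside these lists. AT3G55790, for which the annotation gives no role, had the deepest named fall. It read 165.8, 157.3, 175.7 and 165.1 in CLE3ox roots, against 562.7, 674.2 and 988.7 in Col-0 (-2.02 ± 0.35, limma, adjusted p = 0.00465). AT3G60270, a copper-binding cupredoxin, read 117.0, 96.8, 113.3 and 96.6 in CLE3ox roots, against 373.9, 506.1 and 333.8 in Col-0 (-1.77 ± 0.16, adjusted p = 9.22e-06). In both genes the CLE3ox arrays were close to each other and far below Col-0. The cysteine protease CP1 changed by -0.98 ± 0.11 (adjusted p = 0.000121), AT5G15950, an S-adenosylmethionine decarboxylase of polyamine synthesis, by -0.90 ± 0.13 (adjusted p = 0.000849), and AT2G18690, with no role given, by -0.89 ± 0.13 (adjusted p = 0.00135). These 5 calls held without each array.

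Upward, the acyl-protein thioesterase-like gene AT3G15650 read 469.2 and 708.8 in line 12-1 and 963.9 and 982.1 in line 17-3, against 224.1, 281.4 and 256.3 in Col-0 (1.51 ± 0.13, limma, adjusted p = 8.31e-06). Its relative AT1G52700 read 72.7 and 118.9 in line 12-1 and 296.2 and 267.8 in line 17-3, against 44.6, 55.4 and 64.4 in Col-0 (1.36 ± 0.19, adjusted p = 0.00087). Both were highest in line 17-3, and cross-hybridisation between them was not tested. AT5G10695, without a role given, read 365.5 and 394.6 in line 12-1 and 788.1 and 764.8 in line 17-3, against 237.9, 291.8 and 259.5 in Col-0 (1.01 ± 0.14, adjusted p = 0.000539). AT1G33340, an adaptor protein of clathrin-coated vesicles by its ENTH/ANTH domain, rose by 0.93 ± 0.13 (adjusted p = 0.000849). AT5G52750, with a heavy-metal-binding domain, rose by 0.98 ± 0.21 (adjusted p = 0.0167), and AT4G21780 by 0.97 ± 0.19 (adjusted p = 0.011). The last 2 lost their calls without 1 array, AT5G52750 without the second 12-1, first 17-3 or first Col-0 array (up to 0.0728) or with the lines and Col-0 alone (0.0746) and AT4G21780 without the third Col-0 array (0.0511).

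Line by line, 528 probe sets passed the test in line 17-3 (3.32%) and 69 in line 12-1 (0.433%), with the same Col-0 arrays serving both. Leaving out 1 array at a time gave 186 to 487 calls in line 17-3, lowest without its second array and also down by over 1.5 times without the first or the third Col-0 array. It gave 25 to 78 calls in line 12-1, lowest without its second array and also down by over 1.5 times without the second or the third Col-0 array. Among the 154 named genes, 134 passed in line 17-3, 29 in line 12-1, 27 in both and 18 in neither. The change was larger in line 17-3 for 122 of the 154, which is 56 of 67 rises and 66 of 87 falls. The same share over all probe sets was not computed, so whether this is particular to these genes was not tested. On the first principal component the arrays of line 17-3 lay at -13.99 and -20.64 and those of line 12-1 at -2.63 and -6.39. The Col-0 arrays lay at 14.84, 12.18 and 16.63. Against each other the lines differed at 42 probe sets (0.264%), 7 of them among the named genes. Of these 7, 6 were higher in line 17-3, AT1G52560, AT3G10020, AT2G29500, AT1G52700, AT5G10695 and AT3G47510, and AT5G26080 was lower there. For the other named genes the test did not separate the lines, which does not show that they respond alike with 2 arrays each.

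**Figure D5:**
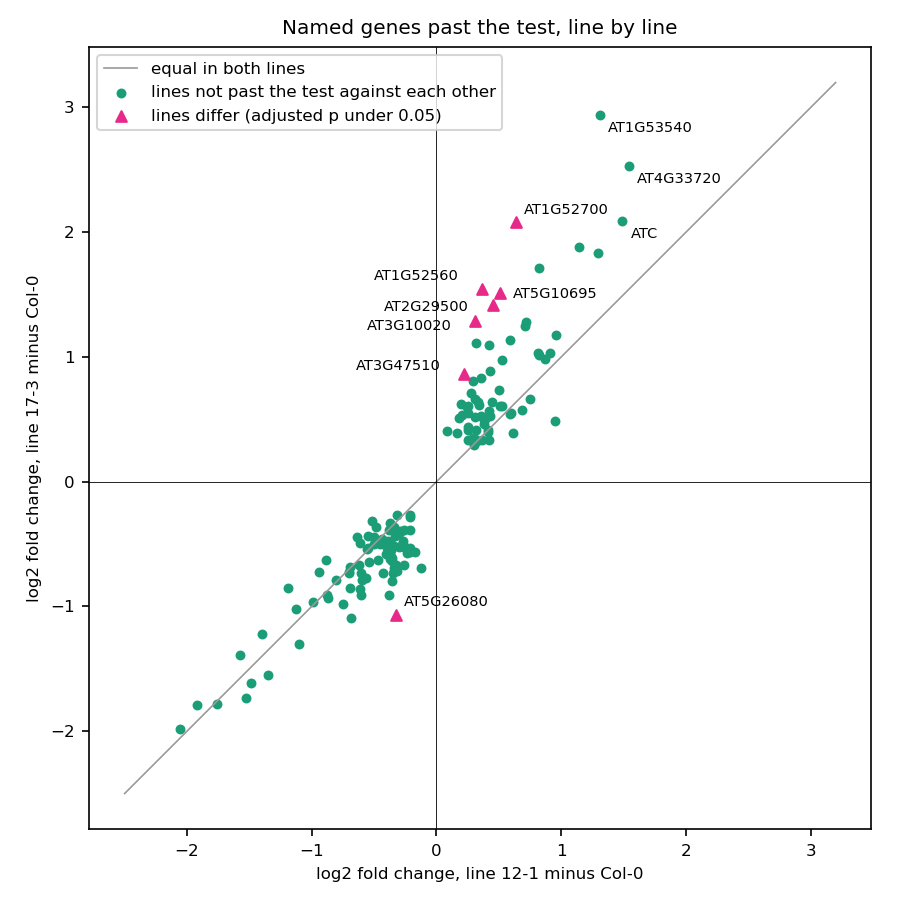
Log2 fold change against Col-0 in line 17-3 (vertical axis) and line 12-1 (horizontal axis) for the 154 named genes past the test and without overlap. Triangles mark the 7 genes whose lines differ, 122 of the 154 lie farther from 0 in line 17-3, and the shared Col-0 arrays enter both axes.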

How the data were processed

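Per the labels, RNA of whole roots was hybridised to ATH1 arrays. The authors deposited 1 linear intensity per probe set and array, processed with MAS5 per the submitters' processing notes, with no version given. With 2% trimmed at each end the mean is 500 on every array. No detection calls were used, and the number of arrays limits the precision. The members and gene lists were chosen with earlier results of these data known.

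Signals were put on the scale log2(signal + 16). Left out were 64 control probe sets and, of the remaining 22746, the 30% with the lowest mean over all 13 arrays. All 13 arrays in 5 groups entered 1 fit with limma 3.58.1 and R 4.3.3 (eBayes with a trend, two-sided). The contrast was the mean of lines 12-1 and 17-3 minus Col-0, without the replicate number, which did not pair the lines with Col-0. Alternatives were pseudocounts, filters, scalings, variance priors, array weights, sets of arrays, the replicate block and, added after seeing the data, the bioD spike-in.

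Genes were named through the platform's annotation and RefSeq's TAIR10.1 table. There, 13513 probe sets have 1 gene (13436 matched by ID), 503 have several and 8730 have none. Named are the 15 largest rises and 15 largest falls past the test without overlap, up to 4 more per list (or its most abundant member), CLE genes, the genes at the edge of the overlap rule and 2 unnamed probe sets per direction. Functional classes were assigned by hand after the values were seen.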

Additional observations from a re-analysis of the deposited data

Results flagged for a closer look

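The lines differed from each other, by limma's test of line 17-3 minus line 12-1, at 42 probe sets. Of the 154 named genes and 4 unnamed probe sets described here, these are 7 genes and 1 unnamed probe set. Probe set 252515_at rose more in line 17-3, by 1.7 on the log2 scale (adjusted p = 0.00119). The small heat shock protein genes AT1G52560 and AT2G29500 did so by 1.18 and 0.96, the low-oxygen gene AT3G10020 by 0.98 and the thioesterase-like gene AT1G52700 by 1.44. AT5G10695 and AT3G47510, for which no role is given, did so by 1.0 and 0.64. AT3G47510 read 909.2 and 847.5 in line 17-3 and 547.5 and 569.2 in line 12-1, with Col-0 at 471.9, 446.5 and 513.3, and the gene was chosen after its values were seen. The proline-rich protein gene AT5G26080 fell more in line 17-3, with a difference of -0.74. Each line has 2 arrays, and what sets the lines apart was not tested.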

How the results depend on the processing

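Leaving out each array in turn gave 206 to 375 probe sets past the test, 81 to 157 rises, 125 to 218 falls, 25 to 78 calls in line 12-1 and 186 to 487 in line 17-3. It gave 1310 to 1770 probe sets above Col-0 and 1430 to 1830 below, since fewer arrays overlap less often. With both lines as 1 group, where differences between the lines enter the spread, 261 probe sets passed and 88 of them rose. Array weights gave 125 calls in line 12-1. Within the arrays of lower and higher bioD signal, with fewer arrays, 66 and 54 probe sets passed, 22 and 24 rose, 44 and 30 fell, and lines 12-1 and 17-3 had 16 and 20 and 119 and 102 calls. The bioD signal as a block gave 519 calls, with all 389 calls among them.

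The replicate block, with that number as a term, gave 341 calls, 294 of them among the 389, with 144 rises and 197 falls. The numbers did not pair the lines with Col-0. Deviations of same-numbered arrays correlated there at 0.235 and 0.176 for number 1 but at -0.177 and -0.185 for number 2. Between the lines they correlated at 0.306, 1 value for both numbers since each line has 2 arrays. The second arrays of both lines also share the higher bioD signal, and the main fit leaves this pattern out.

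The lack of overlap that chose the 154 named genes and 4 unnamed probe sets largely fixes their direction, so only their calls can change. Of these 158, 37 missed the threshold without a filter, 38 with both lines as 1 group, 39 with the lines and Col-0 alone, 28 without a variance trend and 37 with the replicate block, and quantile normalization ended 0 calls. Detection calls were not used, so low signals such as those of ATHSP22.0 have no stated floor.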
